A study of Mus musculus with 6 samples.

Results

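The p200 family of interferon-inducible DNA-binding proteins was followed here through 10 gene symbols, Ifi202b, Ifi203, Ifi204, Ifi205, Ifi207, Ifi208, Ifi209, Ifi213, Mndal and Aim2, out of 55453 symbols in the count table. They were picked by name, and picked because the difference between the 2 groups of libraries in this table was already known, so that difference is described for them without a test. The table comes from 6 sequenced poly(A) RNA libraries whose source is given as SB28 (a glioma line of the mouse) and whose strain is given as C57BL/6. The sample labels give 3 libraries the genotype PP2A KO, titled PP2AcKO 1 to 3 and called knockout here, and 3 the genotype Wild Type, titled PP2AcWT 1 to 3. PP2Ac is the catalytic subunit of protein phosphatase 2A, and the series title ties its loss to STING and type I interferon signalling. No treatment, time or age is given in the sample labels, nor how the knockout was made or whether it rests on 1 clone. The design text of the series speaks instead of SB28 tumours harvested 18 days after implantation in PP2Ac fl/fl mice carrying LysM-Cre, a driver active in myeloid cells, and in wild-type mice. The labels do not settle which description fits these libraries, so a fold change here compares the 2 labelled groups, whichever cells carried the deletion.

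Proteins of the p200 family, also called PYHIN proteins, pair a pyrin domain, which binds other pyrin domains, with HIN domains, which bind double-stranded DNA or other proteins. Most of their genes are induced by interferons, and in the mouse they lie side by side in a cluster that has expanded relative to the human one. AIM2 is the best understood member: on cytosolic DNA it recruits the adaptor ASC and caspase-1 into an inflammasome, which matures interleukin-1 beta and interleukin-18 and opens gasdermin D pores. Mouse p204, the product of Ifi204, has been tied to DNA sensing ahead of STING and to control of growth and differentiation in the nucleus, whereas p202 lacks a pyrin domain and restrains AIM2.

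Totals per library were 40245915 to 46149908 counts in knockout and 38735864 to 49344079 in wild type, and libraries 1 of both groups stood apart from the others of their groups. Ppp2ca, the gene of the catalytic subunit named in the labels, was present at 217, 187 and 193 CPM (counts scaled to library size) in knockout 1, 2 and 3, against 274, 244 and 247 CPM in wild type. The log2 fold change was -0.36 with an SE of 0.08 (adjusted p = 0.00377 by edgeR's quasi-likelihood test), a weak check of the genotype label, since an altered gene can still be transcribed. Because p200 genes are also strongly expressed in myeloid cells, myeloid markers were read beside them. The macrophage markers Adgre1, Fcgr1 and Tyrobp had 0 counts in all 6 libraries, which allows up to 0.0240 CPM in knockout and 0.0222 CPM in wild type (3 counts over a group), and the pan-leukocyte gene Ptprc had 11 counts in knockout and 31 in wild type. Lyz2, the lysozyme gene of macrophages and neutrophils, had 44 counts in knockout and 1 in wild type, a ratio of 47.6 (95% counting interval 8.10 to 1921). Of 14 myeloid markers 4 passed the count filter and all of those, Cd14, S100a8, Cd74 and Cd68, rose, as did 31.9% of all genes tested. The summed marker level was 55.4 to 61.4 CPM in knockout, against 14.3 to 16.3 CPM in wild type, of which Cd14 alone gave 49.4 ± 3.11 and 11.3 ± 0.997 CPM (SD, n = 3). Of 12 glial lineage markers 7 were tested, of which 2 rose and 5 fell, beside 31.9% and 32.1% of all genes tested. The summed level of the 12 was 2091 to 2218 CPM in knockout, against 5189 to 5409 CPM in wild type. Of this Vim alone gave 1882 ± 64.7 and 4791 ± 98.3 CPM (SD, n = 3). Sox2, Nes, Pdgfra and Vim were detected, while Olig1, Olig2 and Sox10 had 0 counts in all 6 libraries. The part of either marker list in the differences below was not tested.

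Every p200 gene that was detected was higher in the knockout libraries. Of the 10 members 9 had counts and passed the filter, and they reached the count minimum in all 3 libraries of each group taken alone. The choice of members on this difference fixes how many are higher, so the counts that follow describe the members and support nothing: all 9 were past the threshold on the higher side, with no overlap between groups. Among all 14877 genes tested, 64.0% were past the threshold, 31.9% on the higher side and 32.1% on the lower, and the groups did not overlap for 68.3%, of which those higher in knockout made up 33.9% of genes tested. Folds ran from 2.23 for Ifi205 to 14.2 for Ifi207, and the members' median log2 fold change was 2.91, against -0.01 over all genes tested. All 9 were at least 2-fold higher, as were 11.0% of genes tested, and 8 were at least 4-fold higher, as were 4.36%. Summed over the 10 members, the level was 444 ± 56.4 CPM in knockout and 66.3 ± 8.94 CPM in wild type (SD, n = 3 each). In bulk RNA, fewer cells of a kind and less RNA per cell cannot be told apart.

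**Figure D1:**
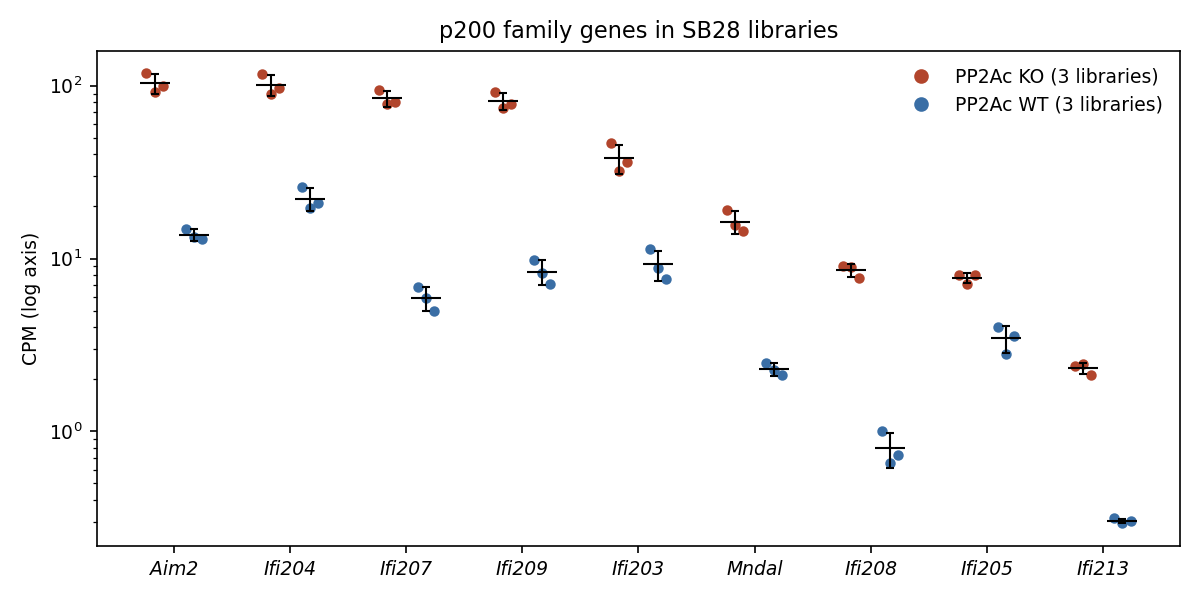
CPM of the 9 detected p200 genes in each library on a log axis, with knockout left of wild type; points are libraries, and bars are the mean ± SD of 3. The 3 knockout points of each gene lie above its 3 wild-type points, at 118, 92.5 and 99.3 CPM against 14.9, 13.3 and 13.0 CPM for Aim2.

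Aim2, the cytosolic DNA sensor of the inflammasome, had the highest mean level per kb of exon among the members in knockout. It stood at 118, 92.5 and 99.3 CPM in knockout 1, 2 and 3, against 14.9, 13.3 and 13.0 CPM in wild type 1, 2 and 3. The lowest knockout library held more than 6 times the wild-type values, and the means, 103 ± 13.2 and 13.7 ± 1.02 CPM, were 7.52-fold apart (log2 fold change 2.91, SE 0.11). Aim2 and Ifi202b are the members with the least shared sequence, and for Aim2 0.0% of the stretches of 100 bases in its annotated transcripts occur in a transcript of another gene.

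Ifi204, which encodes the nuclear and cytosolic protein p204, had the highest mean level per kb among the members in wild type. Its level was 117, 89.9 and 96.9 CPM in knockout, against 25.9, 19.6 and 21.0 CPM in wild type. The groups were far apart, although less so than for Aim2, with a 4.57-fold difference (log2 fold change 2.19, SE 0.13). Ifi207, whose large protein has been reported in the mouse to stabilise STING, had the widest gap of all members. It was at 94.9, 78.1 and 80.3 CPM in knockout, against 6.87, 5.94 and 4.99 CPM in wild type, a 14.2-fold difference (log2 fold change 3.82, SE 0.13). Ifi209, another member, was at 92.4, 74.0 and 78.7 CPM in knockout, against 9.83, 8.23 and 7.15 CPM in wild type, a 9.69-fold difference (log2 fold change 3.28, SE 0.13).

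Ifi203 and Mndal, which share a stretch of the cluster and overlap in 0.6% of the exon bases of Ifi203 and, together with a pseudogene, 4.3% of those of Mndal, had intermediate levels per kb. Ifi203 stood at 46.5, 32.0 and 36.1 CPM in knockout, against 11.3, 8.80 and 7.63 CPM in wild type. This was a 4.12-fold difference (log2 fold change 2.04, SE 0.18), and knockout 1 lay above the other 2 knockout libraries. Mndal, named for its likeness to the human myeloid nuclear differentiation antigen, was at 19.2, 15.6 and 14.3 CPM in knockout, against 2.49, 2.27 and 2.11 CPM in wild type. The gap was wider than for Ifi203, at 7.12-fold (log2 fold change 2.83, SE 0.14).

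The remaining members had the lowest levels per kb in knockout. Ifi208 stood at 9.08, 8.96 and 7.66 CPM in knockout, against 0.999, 0.658 and 0.730 CPM in wild type, a 10.6-fold difference (log2 fold change 3.41, SE 0.17). Ifi213 was at 2.38, 2.44 and 2.12 CPM in knockout, against 0.313, 0.295 and 0.302 CPM in wild type, a 7.55-fold difference (log2 fold change 2.92, SE 0.19). Ifi205, whose product p205 has been reported in mouse macrophages to sustain expression of ASC, had the narrowest gap. It stood at 8.07, 7.15 and 8.05 CPM in knockout, against 4.03, 2.81 and 3.55 CPM in wild type, a 2.23-fold difference (log2 fold change 1.16, SE 0.14). Ifi202b, which encodes the AIM2 antagonist p202, had 0 counts in all 6 libraries, which allows up to 0.0240 CPM in knockout and 0.0222 CPM in wild type. C57BL/6 mice are known to express Ifi202b far below lupus-prone strains such as NZB.

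**Figure D2:**
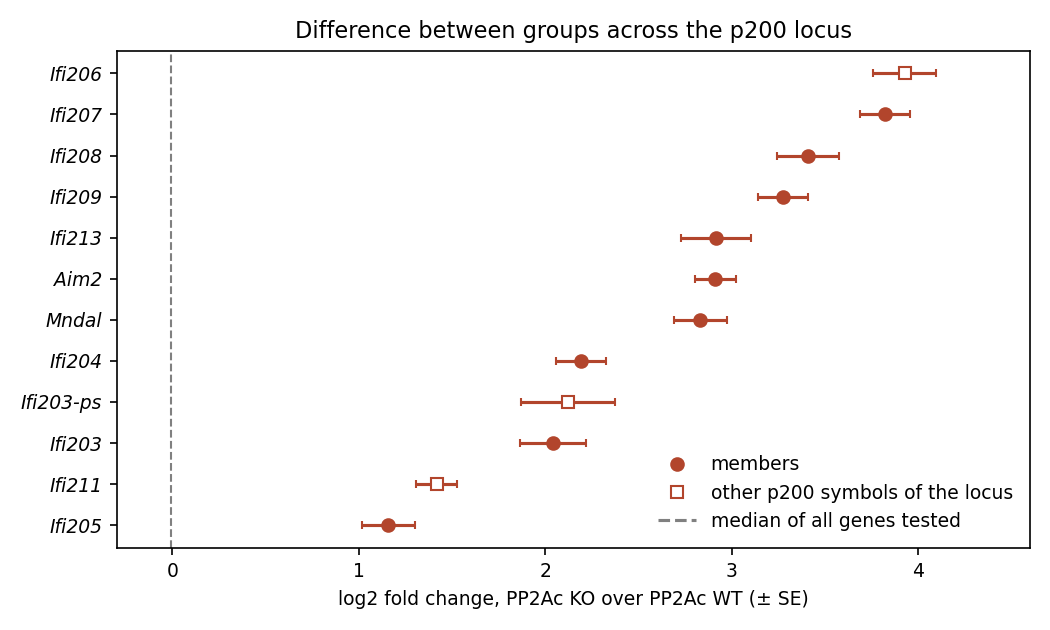
Log2 fold change of knockout over wild type with its standard error for the 9 detected members (filled circles) and 3 other p200 symbols of the same cluster (open squares). All 12 lie right of the dashed median of all genes tested, from 1.16 for Ifi205 to 3.93 for Ifi206.

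Divided by exon length, the members fell into tiers that were separated in knockout. Aim2, Ifi204, Ifi207 and Ifi209 averaged 29.5 ± 3.77, 28.5 ± 4.01, 24.7 ± 2.67 and 23.0 ± 2.68 CPM per kb in knockout (SD, n = 3). The range of each over the libraries overlapped that of the next in the order. A gap followed, then Ifi203 at 5.70 ± 1.11 and Mndal at 4.51 ± 0.693 CPM per kb, which overlapped each other. Below a further gap came Ifi205 at 1.86 ± 0.125 and Ifi208 at 1.63 ± 0.149 CPM per kb, also overlapping, and Ifi213 at 0.338 ± 0.0247 CPM per kb. In wild type Ifi204 led alone at 6.22 ± 0.926 CPM per kb, above Aim2 at 3.92 ± 0.292, Ifi209 at 2.37 ± 0.380 and Ifi207 at 1.73 ± 0.276 CPM per kb, with no overlap between these neighbours. Ifi203, at 1.38 ± 0.280 CPM per kb, overlapped Ifi207, and Ifi205, at 0.830 ± 0.147, overlapped Mndal, at 0.631 ± 0.0515 CPM per kb. Ifi208 and Ifi213 came last in wild type, at 0.151 ± 0.0342 and 0.0444 ± 0.00136 CPM per kb. Overlap here compares ranges over libraries, and within each library the overlapping pairs kept the order of their means. In knockout 1, 2 and 3 the ratio of Aim2 to Ifi204 was 1.02, 1.05 and 1.04. That of Ifi207 to Ifi204 was 0.842, 0.904 and 0.862, and that of Ifi209 to Ifi207 was 0.939, 0.915 and 0.946. The length is that of all annotated exons of a gene, which understates the level of a gene that uses only some of them.

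The make-up of the level summed over the 10 members therefore differed between the groups. Ifi211, a p200 relative outside the 10 symbols, is left out of this sum and of the shares below. It stood at 54.4 CPM per kb in knockout and 20.3 in wild type. The members together stood at 120 ± 15.0 CPM per kb in knockout and 17.3 ± 2.25 in wild type (SD, n = 3). Of the summed level per kb, Ifi207 held 20.6% ± 0.407 in knockout and 10.03% ± 0.784 in wild type, and Ifi209 held 19.3% ± 0.185 and 13.7% ± 0.856 (SD, n = 3). Ifi204 held 23.8% ± 0.401 in knockout and 36.0% ± 1.63 in wild type, Ifi203 4.73% ± 0.328 and 7.93% ± 0.670, and Ifi205 1.56% ± 0.138 and 4.80% ± 0.600. Aim2 held nearly the same part in both, 24.6% ± 0.201 in knockout and 22.8% ± 1.20 in wild type, with no overlap between groups, while the shares of Mndal and Ifi213 overlapped. These shifts were steady from library to library: the ratio of Ifi207 to Ifi204 per kb was 0.842, 0.904 and 0.862 in knockout, against 0.277, 0.316 and 0.247 in wild type.

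**Figure D3:**
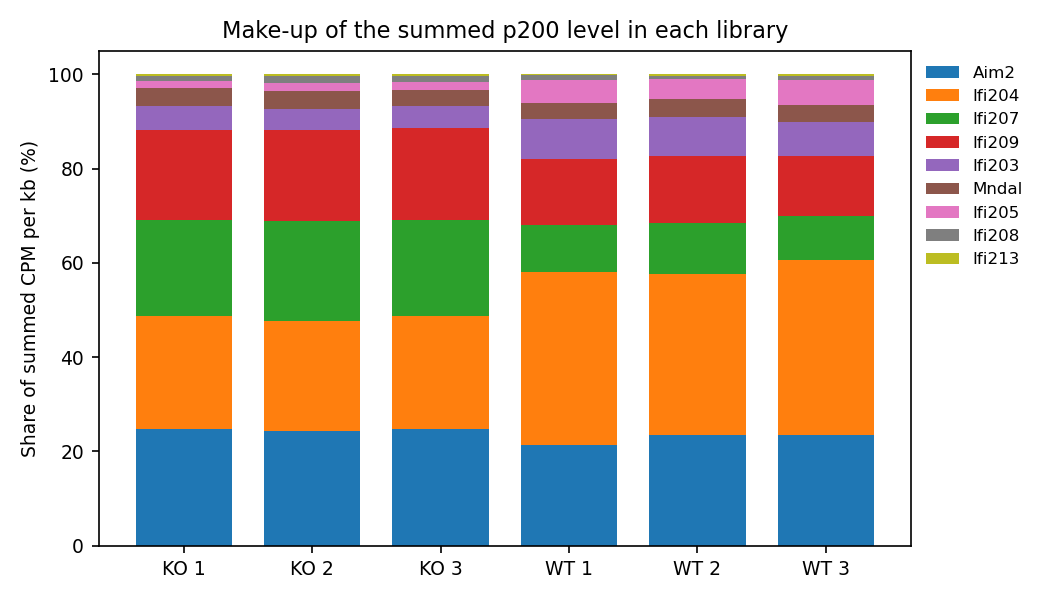
Share of each detected member in the summed CPM per kb of the 10 members, in percent, for each library, with knockout 1 to 3 left of wild type 1 to 3. Ifi207 (green) holds 20.6% on average in knockout and 10.03% in wild type, and Ifi204 (orange) 23.8% and 36.0%.

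In library 1 every detected member was above the mean of libraries 2 and 3 of its group, in knockout by 1.04 to 1.36 times (median 1.21) and in wild type by 1.05 to 1.44 times (median 1.27). Over all genes tested the medians of the same ratio were 0.999 in knockout and 0.997 in wild type, and 49.9% and 49.3% of genes were above 1. Of 28 antiviral interferon-stimulated genes, 16 were above the mean of the other 2 libraries in knockout 1 and 19 in wild type 1, and of 17 genes of interferon signal transduction 7 were in each. Of 3 other p200 symbols 2 were in each, of 21 genes of DNA sensing 14 were in each, and of 11 inflammasome genes 7 and 8 were. The numbers were 2 and 4 of 6 other genes with Ifi names, and 5 and 4 of 16 reported partners. With 3 libraries in a group this within-group pattern is given without a test.

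All 10 members lie on chromosome 1 of GRCm38, between 173350879 and 174031810, a span of 680.9 kb. From the first to the last base of each gene, the order is Aim2 (173350879 to 173466040, plus strand), Ifi213 (173566283 to 173599274, minus), Ifi209 (173630917 to 173647928, plus), Ifi208 (173673675 to 173698395, plus) and Ifi207 (173723427 to 173741747, minus). Ifi204 (173747293 to 173766943), Mndal (173849126 to 173942491), Ifi203 (173920407 to 173942672), Ifi202b (173962568 to 173982744) and Ifi205 (174011998 to 174031810) follow, all on the minus strand. The span also holds other p200 symbols. Ifi206 was at 16.4, 13.9 and 12.9 CPM in knockout, against 1.16, 0.771 and 0.881 CPM in wild type, and rose 15.2-fold, with an adjusted p of 1.62e-07 (log2 fold change 3.93, SE 0.17). Ifi211 was at 104, 93.5 and 93.9 CPM in knockout, against 42.1, 31.4 and 35.3 CPM in wild type, and rose 2.67-fold (adjusted p = 5.56e-06). Per kb it was above every member in both groups, at 54.4 ± 3.21 CPM per kb in knockout and 20.3 ± 3.04 CPM per kb in wild type. The pseudogene Ifi203-ps rose 4.35-fold (adjusted p = 8.69e-05), and Ifi214 had 3 counts in knockout and 1 in wild type.

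Genes around the cluster were close to silent in both groups. Of 39 further genes of the table within 500 kb on either side of the span, 26 carry the Olfr prefix of olfactory receptors and their pseudogenes, and 35 had 0 counts in all 6 libraries. Cadm3, an adhesion gene within the span, had 11 counts in knockout and 2 in wild type, too few for the filter.

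**Figure D4:**
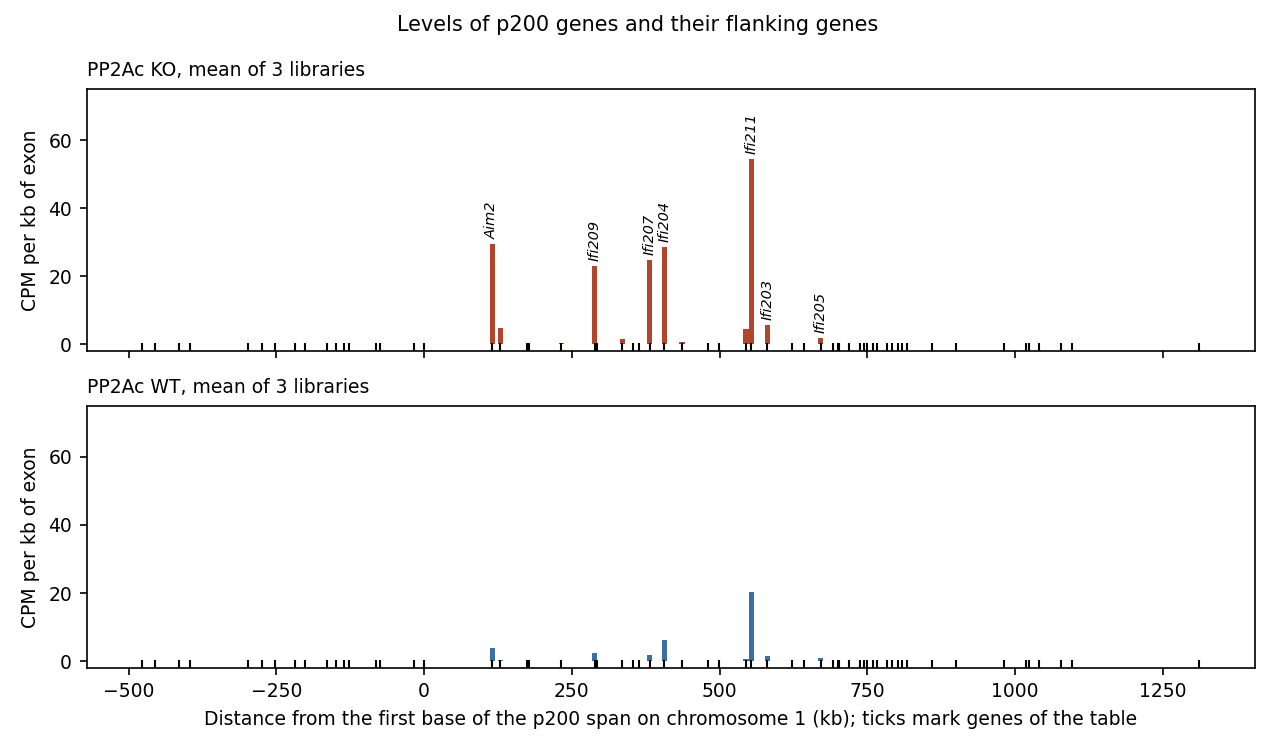
Mean CPM per kb of exon for genes of the p200 span and 500 kb on either side, against distance from the start of the span in kb, with knockout above wild type; bars stand at gene midpoints, Aim2 at its 3′ end, and ticks mark genes of the table. The levels reach 54.4 CPM per kb for Ifi211 in knockout and 20.3 in wild type, with the flanks near 0 in both.

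Several members are close relatives in sequence, which limits how exactly reads can be split between them. The share of stretches of 100 bases that also occur in a transcript of another gene was 16.9% for Ifi209, 15.0% for Ifi205, 10.7% for Ifi204, 6.4% for Mndal and 5.9% for Ifi208. It was 3.3% for Ifi213, 2.8% for Ifi203, 0.8% for Ifi207 and 0.0% for Aim2 and Ifi202b. The non-member Ifi211 shares 56.9%, including 37.2% with Ifi205 alone, and the non-member Ifi206 shares 13.1%. Ifi205 shares its 15.0% with Ifi211, Ifi209 its 16.9% with Ifi214, and Ifi204 9.6% with Ifi211. The levels of these genes are therefore uncertain to an extent that was not measured.

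The promoters of most members carry the same short element, shown here because it is what the genes share just ahead of their starts. RefSeq windows on GRCm38.p6, from 250 bases before to 50 after a start, were available for 9 of the 10 members, all but Ifi204. The core of the interferon-stimulated response element, searched on both strands as GAAA, any 2 bases and GAAA, was found in 6 of them, against 3.99% of the 27025 genes with a window. The runs of 50 bases shown for Ifi208 and Ifi213 are the same, as are those for Ifi203 and Mndal. In the runs below, written 5′ to 3′ on the strand of the gene, capitals mark that core, except in Ifi209, where they mark the aligned stretch that differs from it at 1 position.
Ifi207, chr1:173741821-173741870, minus: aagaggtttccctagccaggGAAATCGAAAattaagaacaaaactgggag
Ifi208, chr1:173673587-173673636, plus: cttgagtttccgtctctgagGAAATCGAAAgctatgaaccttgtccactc
Ifi213, chr1:173599316-173599365, minus: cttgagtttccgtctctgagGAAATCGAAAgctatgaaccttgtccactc
Ifi203, chr1:173942498-173942547, minus: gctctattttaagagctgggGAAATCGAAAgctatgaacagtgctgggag
Mndal, chr1:173880194-173880243, minus: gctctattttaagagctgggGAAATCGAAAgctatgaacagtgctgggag
Ifi205, chr1:174031860-174031909, minus: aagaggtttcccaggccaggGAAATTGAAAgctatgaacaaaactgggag
Ifi209, chr1:173630760-173630809, plus: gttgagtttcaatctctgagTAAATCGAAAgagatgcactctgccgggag

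The core shown begins 35 to 73 bases before a RefSeq start in Ifi203, Mndal, Ifi207, Ifi208 and Ifi213, and 134 bases before it in Ifi205. Ifi203 and Mndal have 2 windows each. The other window of Ifi203 has no match, and that of Mndal has 1, TTTCTCTTTC on the opposite strand, at 54 bases before its start. Ifi205 has a further match on the opposite strand, TTTCACTTTC, at 23 bases after its start. The letters GAAATCGAAA, noticed after the matches were seen, stand in 16 of all 32851 windows, and those 16 windows belong to 16 genes, of which 5 are members and 2 are the relatives Ifi206 and Ifi214. Ifi205 and Ifi211, whose promoters are identical at 93.4% of 151 aligned bases, carry GAAATTGAAA instead, which stands in 0.116% of windows. Ifi209 has no match, because its element differs from the searched core by G1T, counted from 1 at the 5′ end of the core. Aim2 and Ifi202b have no match in their windows, which says only that these letters are absent there. Over the bases that align in the 250 ahead of the start, Ifi208 and Ifi213 were identical at 99.1% of 235. Ifi203 and Mndal were identical at 97.5% of 239 aligned bases in the windows that hold the runs shown. The folds of the first pair were 10.6 and 7.55 and those of the second 4.12 and 7.12. The promoter of Ifi207, the member with the widest gap, and that of Ifi202b, with no counts, are given below over the 250 bases ahead of the start, with the core in capitals.
Ifi207, chr1:173741810-173742059, minus: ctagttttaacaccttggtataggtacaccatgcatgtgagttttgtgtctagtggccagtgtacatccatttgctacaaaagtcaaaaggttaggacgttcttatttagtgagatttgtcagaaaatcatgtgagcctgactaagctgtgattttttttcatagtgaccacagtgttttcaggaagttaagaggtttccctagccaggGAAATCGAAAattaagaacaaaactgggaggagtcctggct
Ifi202b, chr1:173982845-173983094, minus: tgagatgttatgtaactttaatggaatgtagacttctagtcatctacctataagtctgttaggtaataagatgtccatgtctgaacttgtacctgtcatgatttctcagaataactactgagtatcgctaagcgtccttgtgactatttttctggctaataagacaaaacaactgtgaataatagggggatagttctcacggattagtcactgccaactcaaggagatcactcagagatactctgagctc

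A second motif, the gamma-activated sequence core TTCNNNGAA, was found in the window of 1 member, Ifi202b, against 9.55% of genes. The kappaB core, searched on both strands as GGGA, any 4 bases and CC, was found in 3 members, Ifi203, Ifi209 and Mndal, against 22.92% of genes. A match is a run of letters and does not show that a factor binds there.

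Genes that act with AIM2 in the inflammasome moved unevenly, and the adaptor that links AIM2 to caspase-1 was not detected. Pycard, which encodes ASC, had 1 count in knockout and 0 in wild type, at or under the floor in both groups. Of the 3800 bases in its annotated exons 12.8% overlap another gene, and 0.0% overlap one on the same strand. Whether this overlap limited the counting of its message was not tested. Of 18 listed genes 11 were tested, of which 8 rose (72.7%), 2 fell and 1 did not pass, with a median log2 fold change of 0.84. Among all genes tested 31.9% rose and 32.1% fell. Casp1, the effector protease, was at 5.51, 4.198 and 4.27 CPM in knockout, against 1.10, 0.476 and 0.629 CPM in wild type, a 6.21-fold rise with an adjusted p of 2.65e-05 (log2 fold change 2.64, SE 0.26).

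The caspase of the non-canonical pathway, Casp4, rose as well, with 39.6 ± 4.71 CPM in knockout and 1.77 ± 0.186 CPM in wild type (log2 fold change 4.48, SE 0.13, adjusted p = 2.48e-08). Naip2, a sensor of bacterial secretion systems, reached 16.5 ± 1.72 CPM in knockout and 0.405 ± 0.0438 CPM in wild type (adjusted p = 2.15e-08). Nlrp3, another inflammasome sensor, had 220 counts in knockout and 5 in wild type (adjusted p = 5.51e-06). Gsdmd, the pore former, rose 1.29-fold (42.1 ± 3.04 CPM in knockout and 32.6 ± 1.08 CPM in wild type, adjusted p = 0.00279). Of the cytokines that caspase-1 matures, Il1b had 2 counts in knockout and 0 in wild type, and Il18 stood at 1.63 ± 0.0492 CPM in knockout and 1.77 ± 0.318 CPM in wild type (adjusted p = 0.554). Il1a, which is not a caspase-1 substrate, had 354 counts in knockout and 0 in wild type (adjusted p = 2.78e-06).

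**Figure D5:**
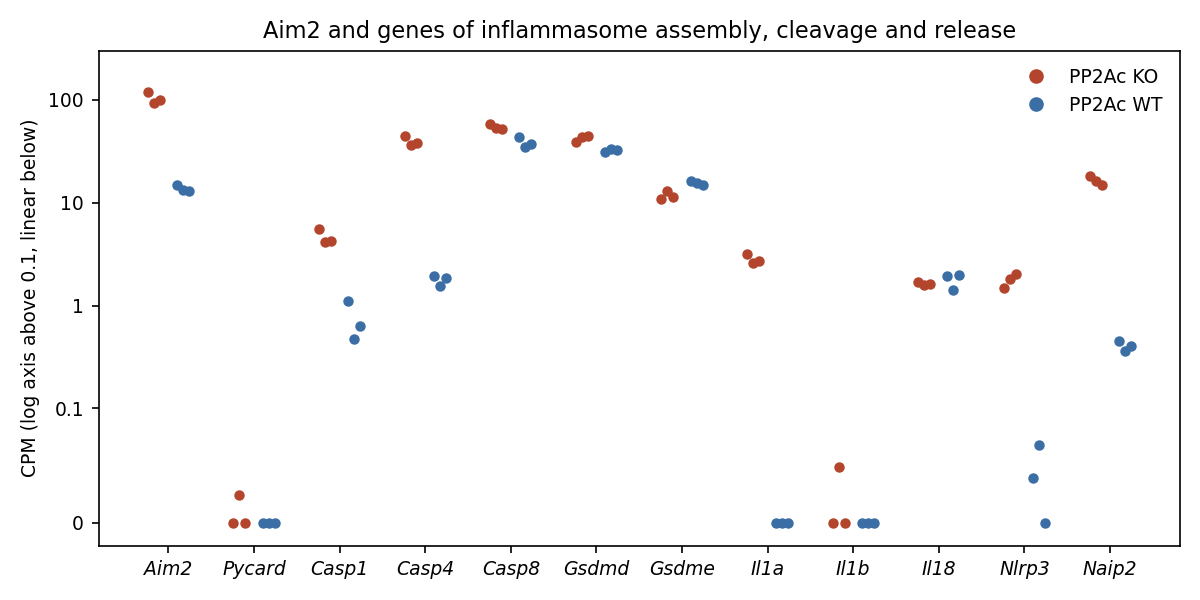
CPM of Aim2 and 11 inflammasome genes in each library, knockout left of wild type, on an axis that is logarithmic above 0.1 and linear below. Pycard and Il1b lie at or next to 0 in all 6 libraries, while Aim2 lies at 92.5 to 118 CPM in knockout and 13.0 to 14.9 CPM in wild type.

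Other genes of DNA sensing and clearance moved in both directions. Of 21 tested genes 7 rose, 12 fell and 2 did not pass, and their median log2 fold change was -0.44. The share that rose was 33.3%, close to the 31.9% of all genes tested. Cgas, the enzyme that makes the STING ligand, fell to 11.9 ± 1.07 CPM in knockout, against 18.0 ± 1.25 CPM in wild type (log2 fold change -0.60, adjusted p = 0.000696). Tmem173, which encodes STING, stood at 47.5 ± 1.20 CPM in knockout and 37.9 ± 0.864 CPM in wild type (log2 fold change 0.32, adjusted p = 0.00222). Zbp1, which binds left-handed DNA and RNA, had a log2 fold change of 4.25 (adjusted p = 1.4e-09), and the lysosomal nuclease gene Dnase2a one of 0.82 (adjusted p = 4.79e-05). Samhd1, a dNTP hydrolase, and Xrcc6, the Ku70 subunit of DNA end joining, fell by 0.76 and 0.69 (adjusted p = 1.04e-05 and 2.71e-05). Against a fold change of 1.5, only 2 of the 7 and 2 of the 12 passed, and neither Cgas nor Tmem173 was among them.

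Genes that carry the interferon signal to such targets were mostly higher. Of 17 tested, 13 rose (76.5%), 1 fell and 3 did not pass, and their median log2 fold change was 1.17. Among all genes tested 31.9% rose and 32.1% fell. Stat2 and Irf9, whose products are part of the complex that binds the response element, both rose. Stat2 stood at 291 ± 8.14 CPM in knockout and 102 ± 1.26 CPM in wild type (adjusted p = 1.13e-07), and Irf9 at 113 ± 3.93 CPM in knockout and 50.2 ± 1.39 CPM in wild type (adjusted p = 7.63e-07). Irf7, a factor that is itself induced by interferon, rose with a log2 fold change of 2.39 and an SE of 0.10 (adjusted p = 1.51e-07), and Usp18, a brake on the receptor, by the same 2.39 with an SE of 0.07 (adjusted p = 2.07e-08). Irf1, which is best known from the response to interferon gamma, was the member that fell, to 26.8 ± 2.14 CPM in knockout, against 35.8 ± 1.18 CPM in wild type (log2 fold change -0.42, adjusted p = 0.0019). With the replicate number as a block 2 fell, the second being Socs1 (log2 fold change -0.26, adjusted p = 0.00142), a call it also gained without both libraries 1 (adjusted p = 0.00709). Ifnb1, the interferon beta gene, had 32 counts in knockout and 1 in wild type, a ratio of 34.6 (95% counting interval 5.78 to 1409).

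A name that begins with Ifi did not go with 1 direction outside the p200 family. Of 6 tested genes of other families with such names, 4 rose (66.7%, against 31.9% of all genes tested) and 2 fell. Ifi44 stood at 195 ± 26.0 CPM in knockout and 18.0 ± 2.48 CPM in wild type (log2 fold change 3.44, adjusted p = 8.57e-08), and Ifi35 and Ifi27l2a rose by 0.88 and 1.88 on the log2 scale (adjusted p = 1.18e-05 and 0.000837). Ifi27, a mitochondrial and nuclear envelope protein, fell to 48.8 ± 6.02 CPM in knockout, against 65.8 ± 4.68 CPM in wild type (log2 fold change -0.43, adjusted p = 0.00506). Among 28 antiviral interferon-stimulated genes 24 rose (85.7%, against 31.9% of all genes tested), 2 fell and 2 did not pass. Their median log2 fold change was 1.33. The RNA-activated synthetases Oas2, Oas1a and Oas3 rose by 5.06, 4.54 and 4.39 (adjusted p = 3.36e-09, 2e-08 and 2.97e-08), above every p200 member, and viperin, encoded by Rsad2, by 2.79 (adjusted p = 2.42e-08).

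The messages of proteins that p202 and p204 are reported to bind in the mouse included both higher and lower ones. Of 16 tested, 4 rose, 8 fell and 4 did not pass, and their median log2 fold change was -0.17. The share that rose was 25%, against 31.9% of all genes tested. Nfkb1, an NF-kB subunit, stood at 239 ± 5.18 CPM in knockout and 119 ± 4.04 CPM in wild type (adjusted p = 1.47e-06). The differentiation inhibitors Id2 and Id3 fell by 1.52 and 0.99 on the log2 scale (adjusted p = 2.43e-05 and 0.000161), and Rbl2, the pocket protein p130, by 0.58 (adjusted p = 0.000339). Without wild type 2 or without wild type 3 the count of those that fell was 5, since E2f1, Jun and Ubtf then missed the threshold (adjusted p from 0.0831 to 0.119), and Rb1 no longer passed among those that rose (0.121 and 0.0944).

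The 5 genes outside the family whose profile over the 6 libraries lay closest to the mean profile of its tested members were Gbp3, Socs2, Mpeg1, Rsad2 and Itga2. Closeness was the root mean square difference of centred log2 CPM, which was 0.0614 for Gbp3 and 0.0902 for Itga2. Gbp3, an interferon-induced GTPase, was at 220, 196 and 204 CPM in knockout, against 33.9, 30.4 and 29.6 CPM in wild type. Socs2, a suppressor of cytokine signalling, was at 47.1, 39.9 and 41.9 CPM in knockout and 7.52, 6.89 and 6.02 CPM in wild type. Both were higher in every knockout library than in any wild-type library, and highest in library 1 of each group. Over 6 libraries in 2 groups such likeness mostly reflects the size of the gap between the groups.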

How the data were processed

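The authors deposited raw read counts per gene symbol, 1 column for each of the 6 libraries and 0 columns of other samples. Tools listed without roles in the submitters' processing notes are STAR 2.7.1a, fastp 0.20.0, limma 3.48.3, edgeR 3.34.0 and HTSeq 0.11.2, and the builds listed are GRCm38 and mm10. Annotation release and strand setting: not given in the sources used here. Nothing says that replicates were separate cultures, so p-values may measure technical spread only. No 2 libraries of a group agreed within sampling noise.

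Genes were kept by filterByExpr (14877 of 55453), scaled by TMM and fitted in edgeR 4.0.16 (R 4.3.3) for its quasi-likelihood test. P-values were adjusted by Benjamini-Hochberg over every tested gene, with a threshold of 0.05. Standard errors were derived as the absolute log2 fold change over the root of F. CPM uses TMM-scaled library sizes, and CPM per kb divides by the union of exons in GENCODE M21 (GRCm38), where 54402 symbols matched 1 gene. Deviations of libraries with the same replicate number correlated at 0.443, 0.161 and 0.15 over genes, which met the rule for pairing, and a block was tried. Number 1 alone stood out: knockout 2 with wild type 3 gave 0.189 and knockout 3 with wild type 2 gave 0.15. Counting intervals, at 95%, and floors of 3 counts cover counting error only, as the reads carry no molecular identifiers. The test was checked on simulated data. Alternatives were DESeq2 1.42.0, voom of limma 3.58.1, other scalings, no filter, left-out libraries and a test against a fold change of 1.5.

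The members and the gene lists were chosen with earlier results of these data known. The genes named are all 10 members, 14 genes fixed by name (Ppp2ca and genes of DNA sensing, inflammasome and interferon signalling), the up to 4 smallest adjusted p values of each list and of the neighbours, and the 5 closest profiles; a few of these are not reported here. Myeloid and glial markers, Ifi214, Cadm3, Socs1, E2f1, Jun, Ubtf and Rb1 were named after their values were seen. Lists of lymphoid, endothelial and pericyte, neuronal and red cell markers were also read. Their summed levels were at most 0.128, 457, 15.1 and 0.101 CPM in any library. The endothelial and pericyte sum was 420 to 457 CPM in knockout and 402 to 433 CPM in wild type. Of the 5 tested genes of that list 1 rose, 2 fell and 2 did not pass.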

Additional observations from a re-analysis of the deposited data

How the results depend on the processing

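Under 15 alternatives the log2 fold changes of the 9 tested p200 members ranged from 1.03 for Ifi205 to 3.95 for Ifi207. Their direction and calls follow from how the members were chosen and are no sign of stability. Blocking on replicate number (the pairing), 11495 genes passed in all (5721 higher and 5774 lower), against 9525 without it. Genes of interferon signal transduction that fell then numbered 2, against 1 without the block. Those of DNA sensing that fell numbered 13 against 12, antiviral genes 3 against 2, and reported partners 9 against 8. Socs1 and Id1 (adjusted p = 0.0159) gained a call, and no other named gene changed its call with the block. The test for changes beyond 1.5-fold left 3966 genes, 2009 of them higher and 1957 lower. Of the lists, 0 inflammasome genes, 0 genes of interferon signal transduction and 0 other genes with Ifi names then fell, 2 of DNA sensing rose and 2 fell, and 2 reported partners rose and 2 fell. The loss comes from the stricter null, as the fit is the same. Among the genes named by rule, those that passed the main test but missed that one were Ppp2ca, Gsdmd, Cgas, Tmem173, Irf1, Xrcc6, Ifi27 and Rbl2. Genes named after their values were seen are left out of this list. Leaving out libraries gave 8457 to 11123 genes past the threshold, 1 to 2 genes of interferon signal transduction lower and 5 to 9 reported partners lower; the cause was not tested. Scaling by library size alone moved the median of all genes tested by -0.08 on the log2 scale. The levels of the p200 genes other than Aim2 and Ifi202b are limited by shared sequence to differing extents, those of Ifi202b, Pycard and Il1b by depth.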
